A study of Mus musculus with 12 samples.

Results

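The phagocyte NADPH oxidase and enzymes that remove oxidants were followed through 4 myeloid populations of mouse bone marrow. The 9 genes were matched by mouse symbol to 9 of the 56953 Ensembl genes in the deposited tables. They encode 5 parts of the oxidase (Cybb, Cyba, Ncf1, Ncf4 and Rac2) and 4 antioxidant enzymes (Cat, Sod2, Gpx1 and Prdx1). They were chosen by name, with earlier results of these data known. RNA of sorted cells came from female C57BL/6J mice, 8 weeks old, which in the study's lineage tracing carried the genotype Rank cre/+;R26.eYFP fl/+. Cre expressed from the Rank locus, whose product is a receptor of the TNF receptor family, removes a stop signal in front of eYFP in embryonic macrophages, and their descendants stay labeled. The 12 libraries formed 4 groups of 3: eYFP+ macrophages of embryonic origin, eYFP- macrophages derived from adult hematopoiesis, Ly6Chi monocytes and Ly6Clo monocytes. No group received a treatment, and eYFP is absent or present by the history of the cell and not by the genotype of the mouse. The macrophages were gated as F4/80hi cells, and the labels do not say whether same-numbered libraries came from the same mouse, so p-values measure the spread between these samples only.

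In phagocytes the oxidase is assembled on demand. Cybb (gp91phox, also called NOX2) and Cyba (p22phox) form a membrane flavocytochrome that passes electrons from NADPH to oxygen and yields superoxide. Ncf1 (p47phox), Ncf4 (p40phox) and the small GTPase Rac2 wait in the cytosol and move to the membrane on stimulation. Dismutases turn superoxide into hydrogen peroxide, and Sod2 does so inside mitochondria, apart from the membrane where the oxidase is assembled. Catalase (Cat), glutathione peroxidase 1 (Gpx1) and peroxiredoxin 1 (Prdx1) then break down the peroxide. In the bone marrow, macrophages that take up spent red cells and erythroid nuclei handle large amounts of iron and heme, while monocytes are circulating cells equipped for an oxidative burst.

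The bases directly before the annotated start are shown for 5 members. They are the flavocytochrome pair, the cytosolic organizer Ncf1 and the 2 enzymes that were higher in macrophages. In the comparisons described further on, Cybb and Ncf1 were lower in macrophages than in monocytes, and Cyba passed in neither. RefSeq promoter entries (build GRCm38.p6) were found for 7 of the 9 members, all but Ncf4 and Rac2. Windows of 250 bases before the start were searched on both strands for 4 motifs. A PU.1-type core was read as GAGGAA. The core of the antioxidant response element was read as TGACNNNGC. An Sp1-type GC box was read as GGGCGG, and a TATA box as TATAAA. Matches are in capitals, and a match on the reverse strand appears as its reverse complement. None of these motifs overlapped another in the windows shown. Cybb lies at chrX:9469325-9469574 on the minus strand, Cyba at chr8:122432941-122433190 (minus), Ncf1 at chr5:134229626-134229875 (minus), Cat at chr2:103485154-103485403 (minus) and Prdx1 at chr4:116685349-116685598 (plus).
Cybb: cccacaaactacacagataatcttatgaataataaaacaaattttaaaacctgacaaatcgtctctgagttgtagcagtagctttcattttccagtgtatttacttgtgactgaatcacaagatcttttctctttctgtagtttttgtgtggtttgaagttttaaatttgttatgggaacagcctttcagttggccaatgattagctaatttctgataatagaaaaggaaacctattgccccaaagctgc
Cyba: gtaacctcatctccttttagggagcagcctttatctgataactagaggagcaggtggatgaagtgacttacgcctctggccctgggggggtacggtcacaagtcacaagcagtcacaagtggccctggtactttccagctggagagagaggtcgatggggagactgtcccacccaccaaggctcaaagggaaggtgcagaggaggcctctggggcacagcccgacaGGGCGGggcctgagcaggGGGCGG
Ncf1: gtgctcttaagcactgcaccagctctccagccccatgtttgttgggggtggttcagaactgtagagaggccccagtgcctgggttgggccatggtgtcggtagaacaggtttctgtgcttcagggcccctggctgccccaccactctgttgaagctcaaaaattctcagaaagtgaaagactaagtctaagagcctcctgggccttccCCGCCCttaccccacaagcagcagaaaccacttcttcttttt
Cat: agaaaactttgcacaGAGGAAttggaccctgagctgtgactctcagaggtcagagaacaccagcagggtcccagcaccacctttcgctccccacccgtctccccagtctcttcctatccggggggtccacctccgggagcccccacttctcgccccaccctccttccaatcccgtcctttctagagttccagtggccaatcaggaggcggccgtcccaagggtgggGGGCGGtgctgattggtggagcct
Prdx1: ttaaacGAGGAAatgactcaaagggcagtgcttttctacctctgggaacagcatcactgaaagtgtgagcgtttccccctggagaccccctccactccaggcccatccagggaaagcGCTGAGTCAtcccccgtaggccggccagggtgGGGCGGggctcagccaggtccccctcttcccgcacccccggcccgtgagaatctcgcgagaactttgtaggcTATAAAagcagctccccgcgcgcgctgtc
The Cybb window held none of the 4 motifs and was poor in G and C (34%). The Cyba window held 2 GC boxes, 24 and 6 bases before the start, and Ncf1 held 1 at 42 bases on the reverse strand. Cat held a PU.1-type core at 235 bases and a GC box at 24 bases. Prdx1 was the member with all 4 motifs: a PU.1-type core at 244 bases, the antioxidant response element core at 133 bases on the reverse strand, a GC box at 101 bases and a TATA box at 29 bases. Of 32851 promoter windows of the same length, 23.3% held the PU.1-type core, 10.2% the antioxidant response element core, 32.7% the GC box and 12.4% the TATA box. Among the 7 members with a window, 3, 1, 5 and 1 held them, Sod2 adding a PU.1-type core and 4 GC boxes and Gpx1 none of the 4. These are matches of letters, and binding was not measured.

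The libraries held between 26390927 and 48618187 counts. Genes that define macrophages, 12 in all, reached a summed level of 47435 to 64290 TPM (counts per length scaled to an equal sum in each library) in the 6 macrophage libraries, against 390.0 to 468 TPM in Ly6Chi and 1346 to 3097 TPM in Ly6Clo monocytes. Summed levels of genes that mark other cell types moved with the groups. The summed level of 16 neutrophil genes was 167 to 248 TPM in eYFP+ macrophages, 292 to 2833 TPM in eYFP- macrophages, 16514 to 24839 TPM in Ly6Chi and 6952 to 17158 TPM in Ly6Clo monocytes, and none of the 16 was at 0 in every library of a group. The granule genes Camp and Ngp belong to that list and reached 1910 to 3041 TPM and 2081 to 3087 TPM in Ly6Chi monocytes. The neutrophil surface gene Ly6g reached 2.31 to 4.17 TPM there and 19.8 to 43.2 TPM in Ly6Clo monocytes. The 13 erythroid genes found of 14 summed to 9185 to 15065 TPM in eYFP+ and 23184 to 37074 TPM in eYFP- macrophages, against 394 to 1442 TPM in the monocytes, with none at 0 throughout a group. The 8 genes of eosinophils, basophils and mast cells summed to 792 to 1188 TPM in eYFP+ and 1070 to 2392 TPM in eYFP- macrophages. Most of the eYFP+ sum was Ccr3 (mean 916 TPM), and 4 of the 8 genes had a mean of at least 1 TPM there. In eYFP- macrophages Ccr3 had a mean of 618 TPM, and 8 of the 8 genes had a mean of at least 1 TPM. The list summed to 2.78 to 10.7 TPM in 4 monocyte libraries and to 153 and 567 TPM in Ly6Chi replicate 3 and Ly6Clo replicate 3. None of its genes was at 0 throughout a group. The 8 proliferation genes summed to 104 to 224 TPM in eYFP+ macrophages, 309 to 592 TPM in eYFP- macrophages and 99.0 to 160 TPM in monocytes, and the 7 T and NK cell genes to 7.92 to 21.3, 59.4 to 119 and 19.6 to 51.1 TPM. The 7 B cell genes summed to 459 to 702 TPM in macrophages and 29.4 to 144 TPM in monocytes. Most of that sum in macrophages was Cd79b, with means of 562 TPM in eYFP+ and 513 TPM in eYFP- macrophages. There, 1 and 3 of the 7 genes had a mean of at least 1 TPM. Of the B cell genes tested, 1 of 6 was higher in macrophages than in Ly6Chi monocytes. Against Ly6Clo monocytes 1 of 7 was higher and 1 lower. The 7 stromal and endothelial genes summed to 8.07 to 66.2 TPM in macrophages and 0.848 to 31.5 TPM in monocytes. Neutrophils and eosinophils express the oxidase and red cell precursors express catalase and peroxiredoxins, and the part of these cells in the values below was not tested. The gating the study describes for bone marrow myeloid cells starts from Gr1low cells, which would leave out neutrophils, takes macrophages as F4/80+ cells and parts monocytes from eosinophils by light scatter. In bulk RNA, fewer cells of a type and less RNA per cell cannot be told apart.

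The plot of all members by library shows the levels described next.

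**Figure D1:**
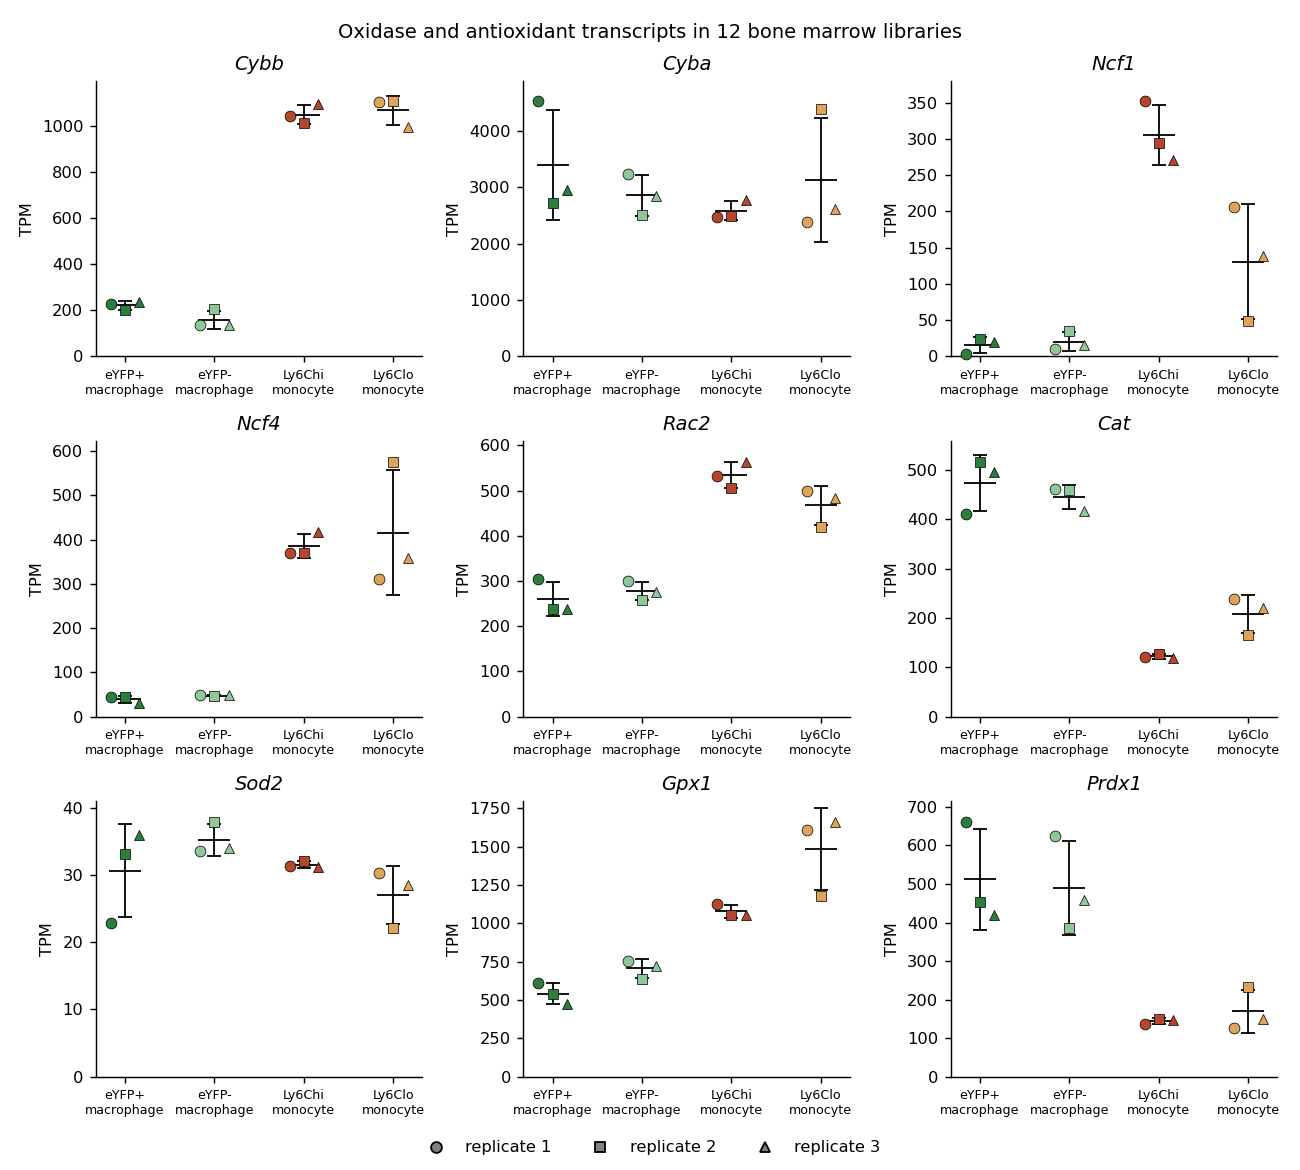
Level of each of the 9 members (TPM, linear axes from 0) in the 3 libraries of each group; symbols mark the replicate, the horizontal line the group mean and the bars the SD (n = 3). Cybb, Ncf1, Ncf4, Rac2 and Gpx1 lie lower, and Cat and Prdx1 higher, in all 6 macrophage libraries than in all 6 monocyte libraries; Cyba and Sod2 overlap.

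Macrophages differed from monocytes in 7 of the 9 members, and the same 7 passed the test against either monocyte population. Cybb, Ncf1, Ncf4, Rac2 and Gpx1 were lower in macrophages, Cat and Prdx1 were higher, and Cyba and Sod2 did not pass. Among all genes tested, 30.7% passed against Ly6Chi monocytes (17.5% higher, 13.2% lower) and 30.2% against Ly6Clo monocytes (17.0% higher, 13.2% lower). The 6 macrophage libraries and the 3 Ly6Chi libraries did not overlap in normalized counts for the same 7 members, compared with 37.2% of all genes, and the share of all genes was 23.6% against Ly6Clo monocytes, where again 7 members did not overlap. The comparisons share their macrophage libraries and are therefore given side by side. The edgeR quasi-likelihood test called the same 7 members in both, where it called 15.1% of all genes higher and 13.9% lower against Ly6Chi monocytes and 14.8% higher and 13.4% lower against Ly6Clo monocytes. With eYFP+ replicate 1 and Ly6Clo replicate 2 left out, the count was again 7 against Ly6Chi and 7 against Ly6Clo monocytes.

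The membrane flavocytochrome split into a subunit that differed and one that did not. Cybb, the catalytic subunit, was at 230.1, 202 and 238 TPM in eYFP+ macrophages and at 135, 206 and 135 TPM in eYFP- macrophages. It was at 1043, 1013 and 1098 TPM in Ly6Chi monocytes and at 1104, 1109 and 996 TPM in Ly6Clo monocytes. All macrophage libraries were low and all monocyte libraries high, with a wide gap between them. The mean of both macrophage groups was 6.02-fold lower than Ly6Chi monocytes (log2 fold change -2.59 ± 0.19 (SE), DESeq2 adjusted p = 3.47e-40) and 6.12-fold lower than Ly6Clo monocytes (-2.61 ± 0.19, DESeq2 adjusted p = 1.02e-40).

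Cyba, the partner that stabilizes gp91phox and anchors the cytosolic organizer, was among the most abundant transcripts in every population, ranking between 17 and 45 of all genes by TPM within a library. Its levels were 4520.1, 2728.5 and 2946 TPM in eYFP+ macrophages and 3229, 2500.3 and 2838 TPM in eYFP- macrophages. Ly6Chi monocytes held 2479, 2492 and 2775 TPM, and Ly6Clo monocytes 2389, 4392 and 2619 TPM. The groups overlapped, and the highest values were those of eYFP+ replicate 1 and Ly6Clo replicate 2. Against Ly6Chi monocytes the log2 difference was 0.19 with a 95% interval from -0.45 to 0.83 (DESeq2 adjusted p = 0.728), and against Ly6Clo monocytes it was -0.10 with an interval from -0.75 to 0.54 (DESeq2 adjusted p = 0.856). After the correction for GC content the differences were 0.28 and -0.85 (DESeq2 adjusted p = 0.760 and 0.228), and the sign of both changed under some settings.

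The TPM of Cyba was therefore many times that of Cybb in macrophages and a few times that of Cybb in monocytes. The ratio ran from 12.4 to 19.6 in eYFP+ and from 12.2 to 23.9 in eYFP- macrophages, compared with 2.38 to 2.53 in Ly6Chi and 2.16 to 3.96 in Ly6Clo monocytes. The ratio follows from the levels above and was not tested separately.

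Among the cytosolic subunits, Ncf1 and Ncf4 showed the largest differences of the 9 members in both comparisons, and Rac2 a smaller one. Ncf1, the organizer that docks the cytosolic complex at the membrane, was at 3.17, 24.2 and 19.4 TPM in eYFP+ macrophages and at 10.4, 34.9 and 15.9 TPM in eYFP- macrophages. Ly6Chi monocytes had 352, 294 and 270.3 TPM, and Ly6Clo monocytes 206, 49.0 and 138 TPM. The lowest monocyte value, in Ly6Clo replicate 2, was still above the highest macrophage value. Ncf1 was 19.1-fold lower in macrophages than in Ly6Chi monocytes (log2 fold change -4.25 ± 0.56, DESeq2 adjusted p = 5.86e-13) and 7.98-fold lower than in Ly6Clo monocytes (-3.00 ± 0.56, DESeq2 adjusted p = 9.99e-07). In the eYFP- group, replicate 2 had the highest Ncf1 level and also the highest sum of neutrophil genes (2833 TPM, against 292 and 949 TPM in replicates 1 and 3). In the eYFP+ group, replicate 1 had the highest neutrophil sum (248 TPM) and the lowest Ncf1 level. The part of those cells in the macrophage value was not tested. The annotated exons of Ncf1 overlap 408 bases of Gtf2ird2 on the opposite strand, and strand was not marked by the library kit. Gtf2ird2 itself was at 1.66 to 9.99 TPM over the 12 libraries, so in macrophages the reads of the pair cannot be fully told apart.

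Ncf4, which binds a phosphoinositide of the phagosome membrane, was at 44.1, 43.1 and 30.4 TPM in eYFP+ and at 47.7, 46.4 and 48.1 TPM in eYFP- macrophages. It was at 370.0, 370.2 and 417 TPM in Ly6Chi and at 312, 577 and 358 TPM in Ly6Clo monocytes. Every macrophage library was below every monocyte library, and the Ly6Clo libraries were the most spread. Ncf4 was 9.53-fold lower than in Ly6Chi (log2 fold change -3.25 ± 0.29, DESeq2 adjusted p = 1.16e-26) and 10.4-fold lower than in Ly6Clo monocytes (-3.38 ± 0.29, DESeq2 adjusted p = 1.54e-28).

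Rac2, the GTPase of blood cells that completes the active oxidase, differed least among the oxidase members that passed. It was at 304, 238 and 238 TPM in eYFP+ macrophages, 299, 259 and 275 TPM in eYFP- macrophages, 533, 506 and 564 TPM in Ly6Chi monocytes and 499, 419 and 483 TPM in Ly6Clo monocytes. Macrophage libraries stayed below all monocyte libraries. The difference was 2.12-fold against Ly6Chi (log2 fold change -1.08 ± 0.22, DESeq2 adjusted p = 6.76e-06) and 1.84-fold against Ly6Clo monocytes (-0.88 ± 0.22, DESeq2 adjusted p = 0.00039).

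The plot of the fitted differences places these members beside the antioxidant enzymes.

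**Figure D2:**
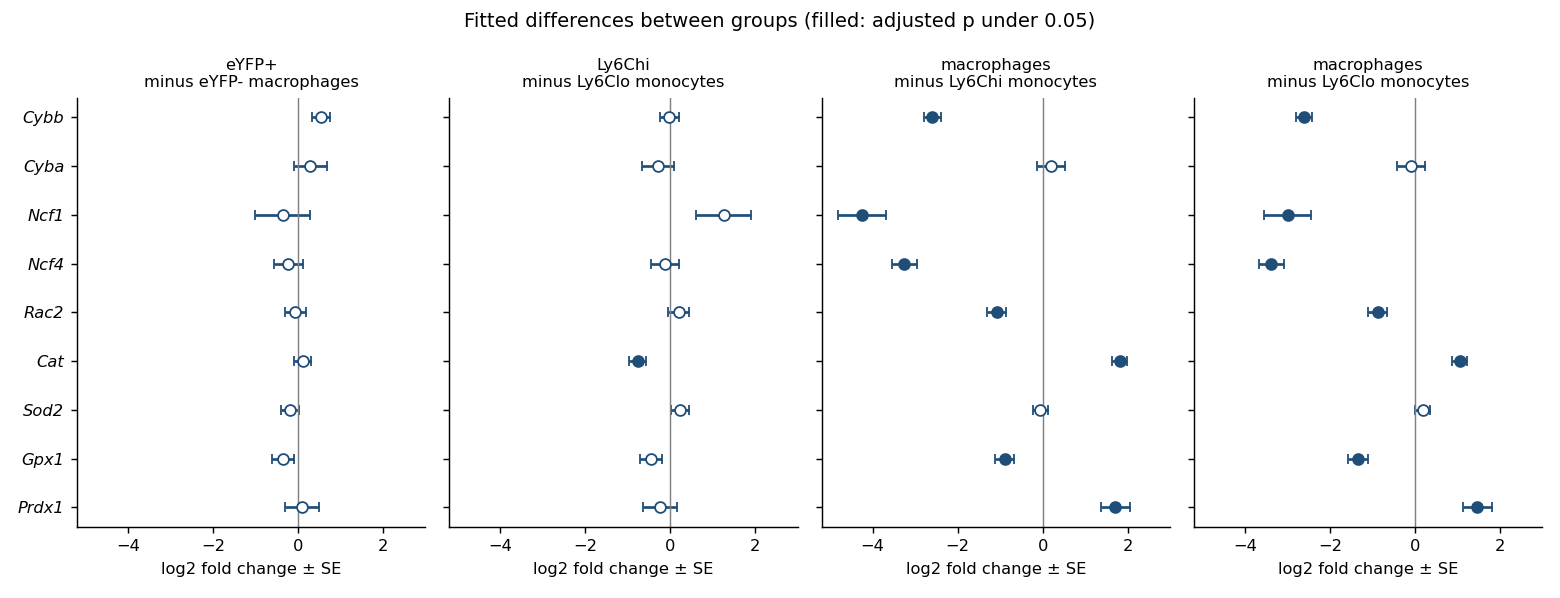
Log2 fold change of each member in the 4 comparisons (points, with bars of 1 SE of the DESeq2 fit over 12 libraries; filled points have an adjusted p under 0.05). Ncf1, Ncf4 and Cybb lie farthest below 0 and Cat and Prdx1 above 0 in both comparisons of macrophages with monocytes, and Cat is the single filled point in the comparison of Ly6Chi with Ly6Clo monocytes.

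The peroxide-removing enzymes did not move together. Cat, the peroxisomal enzyme that splits hydrogen peroxide into water and oxygen, was at 410.2, 518 and 497 TPM in eYFP+ macrophages and at 462, 460 and 418 TPM in eYFP- macrophages. It was at 121, 127 and 119 TPM in Ly6Chi and at 239, 165 and 221 TPM in Ly6Clo monocytes. The 3 levels were ordered macrophages, Ly6Clo monocytes, Ly6Chi monocytes, with no overlap between neighboring cell types. Cat was 3.51-fold higher in macrophages than in Ly6Chi monocytes (log2 fold change 1.81 ± 0.17, DESeq2 adjusted p = 1.77e-23) and 2.07-fold higher than in Ly6Clo monocytes (1.05 ± 0.17, DESeq2 adjusted p = 2.68e-08). All 13 erythroid genes were also higher in macrophages than in either monocyte group, and the part of erythroid RNA in the Cat values was not tested.

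Prdx1, a cytosolic thioredoxin-dependent peroxidase, was at 662, 454 and 419 TPM in eYFP+ and at 623, 386 and 459 TPM in eYFP- macrophages. Monocytes had 137, 151 and 147 TPM in the Ly6Chi group and 125, 233 and 150.4 TPM in the Ly6Clo group. Every macrophage library was above every monocyte library. The difference was 3.28-fold against Ly6Chi (log2 fold change 1.71 ± 0.34, DESeq2 adjusted p = 4.68e-06) and 2.77-fold against Ly6Clo monocytes (1.47 ± 0.34, DESeq2 adjusted p = 0.000126). Of the stretches of 50 bases in its longest transcript, 10.9% occur also in 3 other annotated genes (Gm15974, Gm21399 and Gm7204), so part of its reads may have been set aside as ambiguous.

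Gpx1, the selenoenzyme that reduces hydrogen peroxide with glutathione, took the opposite direction. It was at 614, 536 and 476 TPM in eYFP+ macrophages, 755, 638 and 723 TPM in eYFP- macrophages, 1127, 1052 and 1057 TPM in Ly6Chi monocytes and 1608, 1175 and 1664 TPM in Ly6Clo monocytes. In TPM the 4 groups stood in that order without overlap between neighbors, whereas in normalized counts the macrophage groups overlapped. Gpx1 was 1.85-fold lower in macrophages than in Ly6Chi (log2 fold change -0.89 ± 0.23, DESeq2 adjusted p = 0.000585) and 2.53-fold lower than in Ly6Clo monocytes (-1.34 ± 0.23, DESeq2 adjusted p = 6.15e-08).

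Sod2, the manganese superoxide dismutase of mitochondria, lay within a narrow band from 22.1 to 37.9 TPM in the 12 libraries. The lowest values belonged to Ly6Clo replicate 2 and eYFP+ replicate 1 (22.8 TPM). In TPM the eYFP+ macrophages overlapped every other group, while eYFP- macrophages (33.6 to 37.9 TPM), Ly6Chi (31.1 to 32.1 TPM) and Ly6Clo monocytes (22.1 to 30.3 TPM) did not overlap one another, and the 6 macrophage libraries together overlapped each monocyte group. In normalized counts, in contrast, eYFP- macrophages (3835 to 4116) overlapped Ly6Chi monocytes (3788 to 3891) but not eYFP+ macrophages (2894 to 3833). The log2 difference between macrophages and Ly6Chi monocytes was -0.052 with a 95% interval from -0.40 to 0.30 (DESeq2 adjusted p = 0.873), and against Ly6Clo monocytes 0.18 with an interval from -0.17 to 0.53 (DESeq2 adjusted p = 0.484). A change of 2-fold lies outside both intervals.

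Other peroxidases, among them Prdx5 (1385 to 1501 TPM in Ly6Chi monocytes), were left out of the shares of Cat, Gpx1 and Prdx1 that follow. Within these 3 genes the shares differed between the cell types. Gpx1 made up 34.2% to 36.4% of their summed TPM in eYFP+ macrophages, 41.0% to 45.2% in eYFP- macrophages, 79.1% to 81.4% in Ly6Chi and 74.7% to 81.7% in Ly6Clo monocytes. Catalase made up 24.3% to 35.7% over the 6 macrophage libraries, and 8.73% to 9.54% and 10.5% to 12.1% in the monocyte groups. The remainder was Prdx1, with 30.1% to 39.3% in eYFP+ macrophages, at most 33.9% in eYFP- macrophages and 6.36% to 14.8% in monocytes. Cybb and Cat changed places in level: the ratio of Cybb to Cat in TPM was 0.292 to 0.561 over the 6 macrophage libraries and 4.50 to 9.26 over the 6 monocyte libraries.

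**Figure D3:**
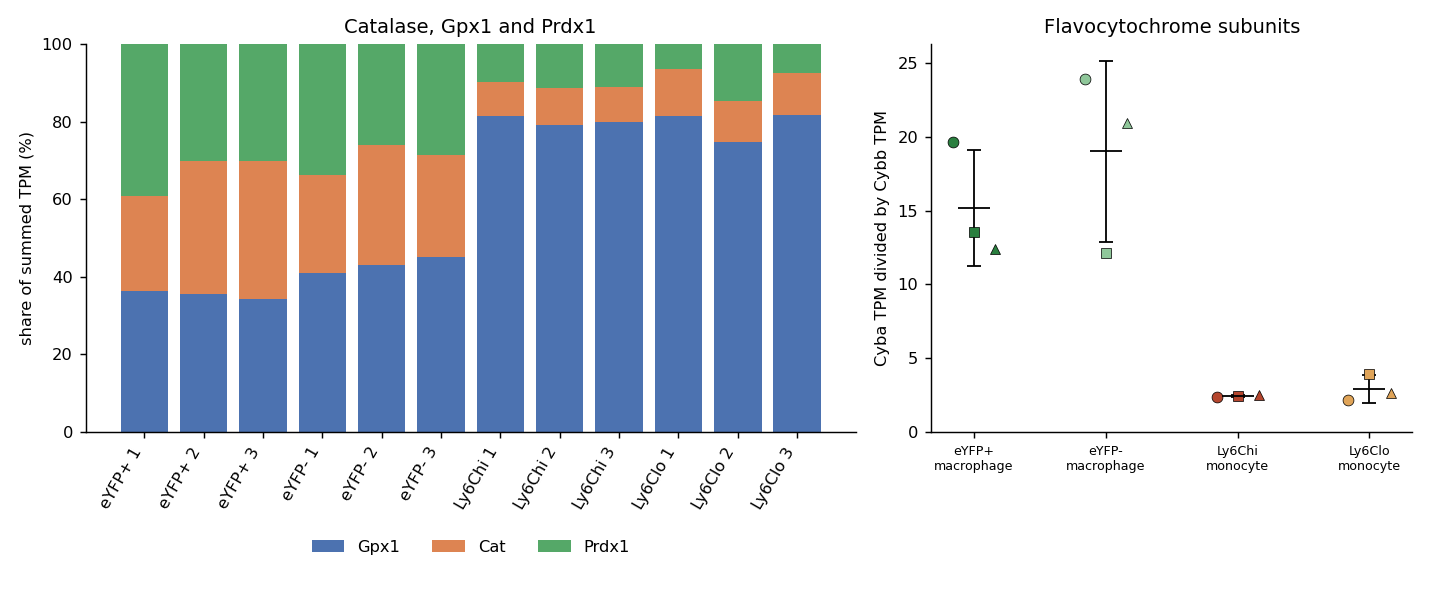
Left, share of Gpx1, Cat and Prdx1 in their summed TPM (%) in each library; right, Cyba TPM divided by Cybb TPM, with points for libraries, lines for group means and bars for the SD (n = 3). Gpx1 takes 34.2% to 45.2% in the macrophage libraries and 74.7% to 81.7% in the monocyte libraries, and the Cyba to Cybb ratio is above 12 in every macrophage library and below 4 in every monocyte library.

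The study asked how macrophages of embryonic and adult origin differ, and for these genes no member passed the test between eYFP+ and eYFP- macrophages. This was 0 of 9 with DESeq2, where 2.04% of all genes passed, and 0 of 9 with edgeR, where 0.334% passed. Without adjustment, p was under 0.05 for 1 of 9 members in either tool, Cybb, beside 8.77% of all genes with DESeq2 and 7.42% with edgeR. Its normalized counts were 23660, 18193 and 20529 in eYFP+ and 13419, 16903 and 12347 in eYFP- macrophages, and the groups did not overlap. Cybb had a log2 difference of 0.55 ± 0.22 and a 95% interval from 0.12 to 0.98 (DESeq2 adjusted p = 0.278, edgeR adjusted p = 0.459). In TPM the groups did overlap, since eYFP- replicate 2 (206 TPM) lay above eYFP+ replicate 2 (202 TPM). That eYFP- library also had the highest neutrophil sum, whose part was not tested. With each library left out in turn the log2 difference of Cybb ran from 0.44 without eYFP+ replicate 1 to 0.69 without eYFP- replicate 2, with DESeq2 adjusted p from 0.092 to 0.962. Normalized counts of the groups did not overlap for 2 of 9 members, Cybb and Sod2, compared with 15.2% of all genes tested.

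For the other members the intervals limit what could have been missed. Gpx1 had a log2 difference of -0.34 (95% interval -0.86 to 0.17), with a DESeq2 adjusted p of 0.899. Cat had a difference of 0.11 (-0.28 to 0.51), Sod2 -0.18 (-0.58 to 0.22) and Rac2 -0.055 (-0.55 to 0.44), which leaves differences of 2-fold outside the intervals of all 4. Cyba (-0.45 to 1.04), Ncf1 (-1.62 to 0.91), Ncf4 (-0.90 to 0.44) and Prdx1 (-0.67 to 0.87) were less precisely measured, and for Cyba and Ncf1 the interval includes a 2-fold difference. The DESeq2 adjusted p was 1 for Cat, Sod2, Rac2, Cyba, Ncf1, Ncf4 and Prdx1. The sign for Cyba, Ncf1, Rac2 and Prdx1 changed under some settings, so no direction is given for them.

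Between the monocyte populations, 1 of 9 members passed with DESeq2, where 8.62% of all genes passed, and 0 of 9 with edgeR, where 4.32% passed. The member was Cat, 1.69-fold lower in Ly6Chi than in Ly6Clo monocytes (log2 fold change -0.76 ± 0.20, DESeq2 adjusted p = 0.00407). Its normalized counts were 6549, 6855 and 6431 in Ly6Chi and 12143, 9432 and 12024 in Ly6Clo monocytes, without overlap. The call was lost with edgeR (adjusted p = 0.0574), without Ly6Chi replicate 1 (DESeq2 adjusted p = 0.0533) and in a DESeq2 fit on the monocyte libraries alone (adjusted p = 0.251).

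No oxidase member passed between the monocyte populations. Ncf1 did not overlap between the groups, with normalized counts of 15508 to 20156 in Ly6Chi and 2957 to 11073 in Ly6Clo monocytes, and its log2 difference was 1.26 ± 0.64 (DESeq2 adjusted p = 0.246). Cybb differed by -0.023 (95% interval -0.45 to 0.41), the smallest difference among the members. Rac2 (0.20) and Sod2 (0.23) were in every Ly6Chi library above every Ly6Clo library, and Gpx1 (-0.45) below, with DESeq2 adjusted p of 0.718, 0.571 and 0.332. In all, the normalized counts of 5 of 9 members did not overlap between the monocyte groups, compared with 28.1% of all genes tested. With eYFP+ replicate 1 and Ly6Clo replicate 2 left out, Gpx1 passed as well (log2 fold change -0.56, DESeq2 adjusted p = 0.0455).

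Those 2 libraries stood apart from their groups. Genes with at least 55% GC in their longest transcript had a median log2 ratio of -0.61 in eYFP+ replicate 1 and -1.20 in Ly6Clo replicate 2 to the mean of the other libraries of the group, and genes under 45% GC had 0.22 and 0.36. Ncf1 (53.4% GC) was lower there, with log2 ratios of -2.57 and -1.68. Cyba, the member richest in GC (59.3%), was higher instead, with 0.89 and 0.92, as were Prdx1 (0.82 and 0.87) and Ncf4 (0.48 and 0.90). Cybb was slightly higher in both (0.29 and 0.20), and Sod2 (-0.38 and -0.30) and Cat (-0.087 and -0.36) were lower in both. Gpx1 (0.50 and -0.36) and Rac2 (0.57 and -0.11) went in opposite directions in the 2 libraries. After a correction of each library for GC content, 7 members again passed in each comparison of macrophages with monocytes.

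**Figure D4:**
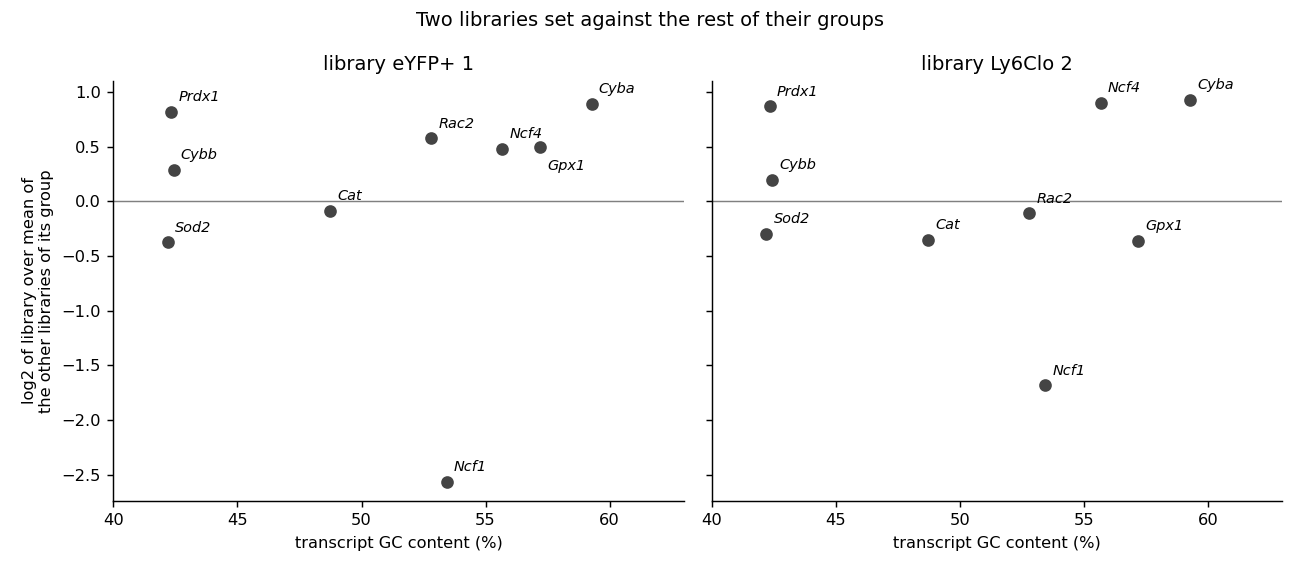
Log2 ratio of the normalized count in 1 library to the mean of the other libraries of its group, for the 9 members against the GC content of the longest transcript (%); left eYFP+ replicate 1, right Ly6Clo replicate 2. Ncf1 lies at -2.57 and -1.68. Sod2 and Cat also lie below 0 in both, and Cyba, Prdx1, Ncf4 and Cybb lie above 0 in both.

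Other genes of the pathway were followed in 7 lists with 74 genes. Between eYFP+ and eYFP- macrophages none of the 69 that could be tested passed with DESeq2, and none with edgeR, while 5 had an unadjusted p under 0.05 with DESeq2 and 5 with edgeR, where 8.77% and 7.42% of all genes did. Against Ly6Chi monocytes 36 of 69 passed (52.2%, beside 30.7% of all genes), and against Ly6Clo monocytes 44 of 70 (62.9%, beside 30.2%). With edgeR 34 and 40 passed. Of all genes, 17.5% were higher and 13.2% lower against Ly6Chi and 17.0% higher and 13.2% lower against Ly6Clo monocytes, and the counts of each list below stand beside those shares.

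Among 13 further oxidase genes, Hvcn1, a voltage-gated proton channel that balances the charge moved by the oxidase, was higher in macrophages. It was at 181 ± 23.9 and 162 ± 7.0 TPM (SD, n = 3) in eYFP+ and eYFP- macrophages and at 20.1 ± 3.0 and 5.9 ± 3.5 TPM in Ly6Chi and Ly6Clo monocytes (log2 fold changes 2.99 ± 0.33 and 4.78 ± 0.33, DESeq2 adjusted p = 4.77e-18 and 1.46e-44). Rac1, the widely expressed relative of Rac2, passed against Ly6Clo monocytes (1.24 ± 0.40, DESeq2 adjusted p = 0.00839) but not against Ly6Chi monocytes (-0.17 ± 0.40, DESeq2 adjusted p = 0.805). The isoforms Nox1, Nox3, Nox4, Duox1 and Duox2 had mean levels under 1 TPM in every group. The list's median log2 fold change was 0.043 against Ly6Chi monocytes, with 1 gene higher and 2 lower of 8 tested. Against Ly6Clo monocytes the list's median was 0.34, with 3 genes higher and 2 lower of 9 tested. The median of all genes tested was 0.070 in each.

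Of 10 genes that regulate oxidase assembly, none was higher in macrophages, 4 were lower than in Ly6Chi and 6 lower than in Ly6Clo monocytes, with medians of -0.49 and -1.08 beside 0.070 for all genes tested in each. The kinase genes Pik3cg (-1.47 ± 0.25 against Ly6Chi, DESeq2 adjusted p = 8.43e-08) and Fgr (-1.22 ± 0.20 against Ly6Clo, DESeq2 adjusted p = 8.01e-09) were lower.

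Among 11 further dismutases and peroxidases, 3 were higher and 2 lower than in Ly6Chi monocytes, and 8 were higher and 2 lower than in Ly6Clo monocytes, with medians of 0.63 and 1.20. Sod1, the cytosolic dismutase, was at 138 to 251 TPM in macrophages and at 29.9 to 116 TPM in monocytes (1.10 ± 0.37 against Ly6Chi, DESeq2 adjusted p = 0.0107). Prdx5 and Prdx6 were lower in macrophages, as was Gpx1, by log2 fold changes of -2.51 ± 0.28 and -1.61 ± 0.20 against Ly6Chi monocytes (DESeq2 adjusted p = 1.97e-17 and 6.55e-15). Gpx4, which reduces lipid peroxides, was higher against Ly6Clo monocytes (1.20 ± 0.22, DESeq2 adjusted p = 3.72e-07). Prdx5, a peroxiredoxin of mitochondria and peroxisomes, was thereby at 242 to 317 TPM in macrophages and 1385 to 1501 TPM in Ly6Chi monocytes.

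Thioredoxin and its reductase, which keep peroxiredoxins reduced, were higher in macrophages. Txn1 was at 416 to 615 TPM against 115 to 250 TPM in monocytes (1.06 ± 0.23 and 1.40 ± 0.23, DESeq2 adjusted p = 4.71e-05 and 2.99e-08), and Txnrd1 differed by 1.89 ± 0.27 against Ly6Chi (DESeq2 adjusted p = 4.79e-11). Glrx, a glutaredoxin, was higher against Ly6Clo monocytes (1.39 ± 0.22, DESeq2 adjusted p = 1.01e-08). In the same list of 12 the methionine sulfoxide reductases Msrb1 and Msra were lower in both comparisons, Msrb1 by log2 fold changes of -3.51 ± 0.31 and -2.58 ± 0.31 (DESeq2 adjusted p = 9.46e-29 and 1.03e-15). The list had 5 genes higher and 2 lower against Ly6Chi and 6 higher and 2 lower against Ly6Clo monocytes, with medians of -0.011 and 0.48.

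The glutathione list of 11 genes divided in a similar way. The subunits of the enzyme that starts glutathione synthesis were higher in macrophages: Gclm by 3.45 ± 0.35 and 4.01 ± 0.36 and Gclc by 1.99 ± 0.50 and 1.98 ± 0.49 on the log2 scale (DESeq2 adjusted p = 6.88e-21, 2.03e-27, 0.000382 and 0.000448), although Gclc stayed below 10 TPM in every library. Gsr, the reductase that recycles oxidized glutathione for Gpx1, was lower by log2 fold changes of -2.77 ± 0.31 and -2.44 ± 0.31 (DESeq2 adjusted p = 4.47e-18 and 4.35e-14), with 23.1 to 47.6 TPM in macrophages and 168 to 267 TPM in monocytes. In all, 3 were higher and 3 lower against Ly6Chi, and 5 higher and 3 lower against Ly6Clo monocytes, with medians of 0.085 and 0.31.

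In the list of 8 genes around NRF2, the regulator that acts through the antioxidant response element, 3 were higher in both comparisons, among them Hmox1, which breaks down heme, and Osgin1. Hmox1 was at 3716 to 10668 TPM in macrophages and 44.9 to 349 TPM in monocytes (log2 fold changes 4.85 ± 0.50 and 4.78 ± 0.50, DESeq2 adjusted p = 5.78e-21 and 2.93e-20). The gene of the repressor Bach1 was lower (-2.54 ± 0.36 and -2.36 ± 0.36, DESeq2 adjusted p = 2.49e-11 and 8.74e-10), and so was Nfe2l2, which encodes NRF2 itself (-1.02 ± 0.26 against Ly6Clo, DESeq2 adjusted p = 0.000628). The medians were -0.44 and 0.29, with 3 genes lower against Ly6Chi and 2 against Ly6Clo monocytes.

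Of 9 genes that supply NADPH, the substrate of the oxidase and of the reductases, 1 was higher and 4 lower than in Ly6Chi monocytes, and 2 were higher and none lower than in Ly6Clo monocytes, with medians of -0.87 and -0.070. G6pdx, the first enzyme of the pentose phosphate pathway, was at 106 to 182 TPM in macrophages and 305 to 320 TPM in Ly6Chi monocytes (-1.27 ± 0.27, DESeq2 adjusted p = 2.03e-05). Idh2, which makes NADPH in mitochondria, was higher in macrophages by 0.81 ± 0.30 and 1.54 ± 0.30 (DESeq2 adjusted p = 0.0251 and 3.34e-06).

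Between the monocyte populations 12 of 69 genes of the lists passed (17.4%, beside 8.62% of all genes), and 6 did with edgeR, where 4.32% of all genes passed. With DESeq2 the lists had 2 further oxidase genes higher in Ly6Chi (Hvcn1 and Rac1), 3 further dismutases and peroxidases higher, led by Gpx4 and Gpx3, and 3 NADPH-supplying genes higher, and with edgeR the counts were 1, 2 and 1. Rac1 (edgeR adjusted p = 0.0772) and Prdx5 (edgeR adjusted p = 0.0516) were among those that lost the call. Hvcn1 differed by 1.80 ± 0.38 (DESeq2 adjusted p = 0.000135, edgeR adjusted p = 0.0142) and Gpx4 by 1.01 ± 0.25 (DESeq2 adjusted p = 0.00157, edgeR adjusted p = 0.0316). Prkcb, a kinase that phosphorylates p47phox, was lower (-1.21 ± 0.31, DESeq2 adjusted p = 0.00306, edgeR adjusted p = 0.0334), and Glrx higher (1.37 ± 0.26, DESeq2 adjusted p = 8.48e-06, edgeR adjusted p = 0.00398).

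**Figure D5:**
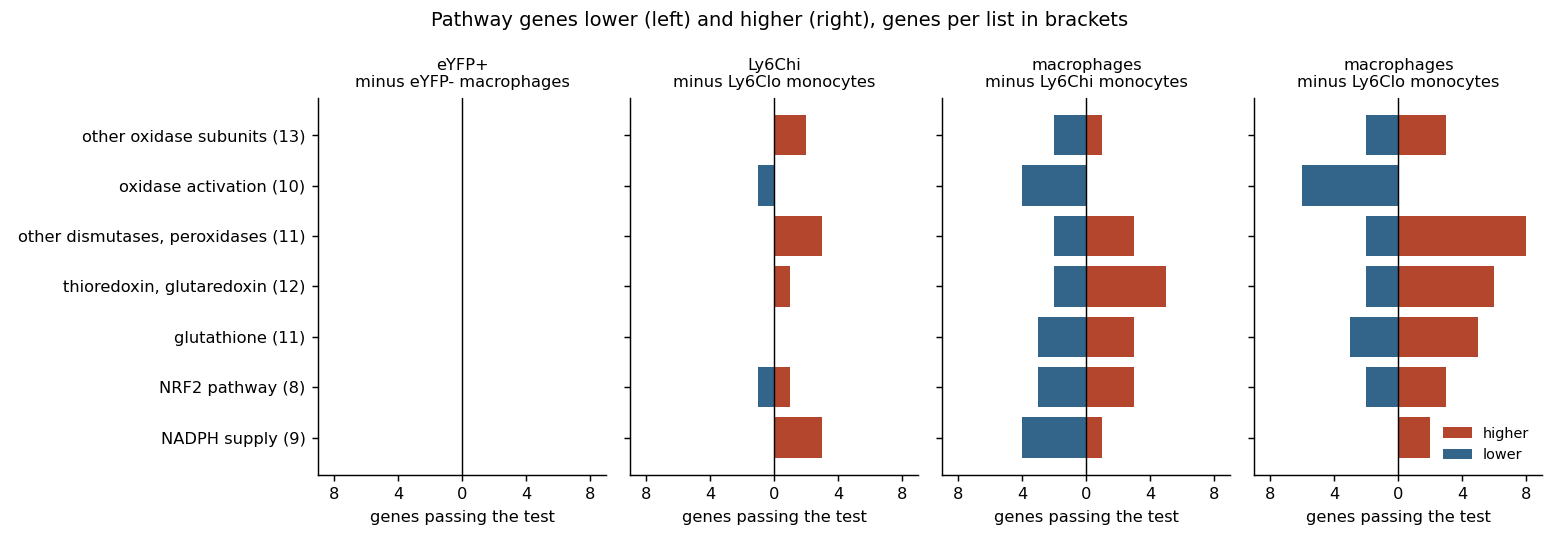
Number of genes passing the DESeq2 test (adjusted p under 0.05) in each of the 7 pathway lists, lower to the left and higher to the right, in the 4 comparisons, with the size of each list in brackets. No gene passes between the macrophage groups, and 8 of 11 further dismutases and peroxidases are higher in macrophages than in Ly6Clo monocytes.

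Across the 12 libraries the members fell into patterns that follow the cell types, as a description of libraries that share groups. In the deposited variance-stabilised values, Pearson's r was 0.96 between Cybb and Ncf4, 0.92 between Cybb and Rac2 and 0.85 between Cat and Prdx1, and it was -0.91 between Cybb and Cat and -0.97 between Ncf1 and Prdx1. Cyba had an r of 0.023 with Cybb. Among 6707 genes compared, the profile most like that of Cybb was Inpp5f (r = 0.99), and it was Cmpk1 for Ncf4 (0.99), Abca7 for Ncf1 (0.99), Eno1 for Rac2 (0.99), Slco2b1 for Cat (0.99) and Mrpl35 for Prdx1 (0.99). Gpx1 was most like the ribosomal pseudogene Rps19-ps6 (0.98) and Cyba most like Mrpl36 (0.98), while Sod2 had its closest profile in Tfg (0.97).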

How the data were processed

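Myeloid cells were sorted from bone marrow, and full-length cDNA amplified from their RNA was tagmented and read from both ends. The authors, as their methods state, trimmed and corrected these reads, removed ribosomal RNA, aligned to GRCm39 with segemehl and deposited counts, whole numbers of unambiguously assigned read pairs per gene from featureCounts. The authors also deposited TPM values, which are counts per gene length scaled to an equal sum, and variance-stabilised values from DESeq2 on a log2-like scale. Reads are not independent molecules, and intervals rest on the spread between replicates.

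Symbols matched 91.4% of the Ensembl identifiers. Counts were tested here with DESeq2 1.42.0 in R 4.3.3: median-of-ratios size factors, 1 fit over 12 libraries on group alone, the Wald test, unshrunken log2 fold changes, and Benjamini-Hochberg adjusted p under 0.05 over all genes with independent filtering. Macrophages means the average of both macrophage groups. edgeR 4.0.16 (quasi-likelihood) and limma 3.58.1 on log2(TPM + 1) or log2(TPM + 0.1) were alternatives, besides other scalings and filters, a GC correction, a replicate block, fits on the groups compared and leaving out libraries. DESeq2 and edgeR were also run on simulated counts, and the outcome of that run is not given here. The members and gene lists were chosen with earlier results of these data known. All members were named; pathway genes were named from those with the smallest adjusted p in each list, up to 2 in each direction per comparison, and not all of these are printed. Transcript GC content, exon overlap and shared sequence came from GENCODE M21 (longest transcript), which is of another build, so the coordinates printed are those of the RefSeq table only.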

Additional observations from a re-analysis of the deposited data

How the results depend on the processing

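The 7 members that passed between macrophages and either monocyte population passed under every alternative run, and no member passed between eYFP+ and eYFP- macrophages under any. Between monocytes the count of members was 1, and it was 0 with edgeR and in a fit on the groups compared, 2 with eYFP+ replicate 1 and Ly6Clo replicate 2 both left out, and 0 to 1 when 1 library was left out. Counts of all genes moved more. Between the macrophage groups 439 genes passed, and 64 did with edgeR, 175 with limma on log2(TPM + 0.1), 686 in a fit on the groups compared, 989 without those 2 libraries and 227 to 529 with 1 library left out, the lowest without eYFP- replicate 3. Between monocytes 1860 passed, and 829 did with edgeR, 1097 with limma on log2(TPM + 0.1), 1219 on log2(TPM + 1), 1191 in a fit on the groups compared and 1205 to 2290 with 1 library left out, the lowest without Ly6Chi replicate 2 and 1219 without Ly6Chi replicate 1. The cause of these moves was not tested.

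Same-numbered eYFP+ and eYFP- libraries deviated from their group means with correlations of 0.22, 0.05 and 0.06 and same-numbered monocyte libraries with 0.03, -0.01 and 0.03. Same-numbered macrophage and monocyte libraries had values from -0.25 to 0.19. Among these, eYFP- macrophages and Ly6Chi monocytes had 0.10 in each replicate. The numbers were not taken as pairs. With the replicate number as a block, 1155 genes passed between the macrophage groups instead of 439, and 0, 1, 7 and 7 members passed in the 4 comparisons.

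Signs changed for members that did not pass. Between the macrophage groups, the log2 difference of Rac2 was 0.038 with the GC correction and between -0.27 and 0.078 with 1 library left out. Prdx1 was at -0.050 with the GC correction, -0.0062 with total-count scaling, -0.24 without eYFP+ replicate 1 and Ly6Clo replicate 2, and from -0.23 to 0.40 with 1 library left out. Cyba was at -0.074 and Ncf1 at 0.11 without those 2 libraries, and they ran from -0.065 to 0.47 and from -0.83 to 0.16 with 1 library left out. Between monocytes, Cybb was at 0.12 with the GC correction, 0.015 with TMM scaling, 0.026 with edgeR and 0.045 without the 2 libraries, and from -0.070 to 0.046 with 1 library left out. Without the 2 libraries Cyba was at 0.083, Ncf4 at 0.24 and Prdx1 at 0.11 there, and with 1 library left out they ran from -0.49 to 0.085, from -0.33 to 0.24 and from -0.45 to 0.11. Against Ly6Chi monocytes, Cyba was at -0.034 without the 2 libraries, and Sod2 at 0.044 with limma at either pseudocount and from -0.087 to 0.011 with 1 library left out. Against Ly6Clo monocytes, Cyba was at 0.049 without the 2 libraries, 0.024 with limma at either pseudocount and from -0.30 to 0.22 with 1 library left out.

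With the GC correction Cyba moved to 0.68 between the macrophage groups, -1.13 between monocytes and -0.85 against Ly6Clo monocytes, Gpx1 to -0.91 and Ncf4 to -0.69 between monocytes, and none of these passed.

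With 3 libraries a group the precision was limited: intervals for Cyba and Ncf1 included a 2-fold difference between the macrophage groups, and those for Cybb, Ncf4, Prdx1 and Gpx1 came near it. The median log2 difference of all genes moved from 0.049 to -0.053 between the macrophage groups with total-count scaling and from 0.070 to -0.042 against Ly6Clo monocytes with the GC correction, and by less than that under the other scalings. The members' calls held in both.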
